A study of Mus musculus with 4 samples.

Results

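Chromatin and histone modifier genes were compared between Nfatc1+ and Shh+ cells of the embryonic mouse hair peg, the downgrowth of epidermis from which the hair follicle forms. The genes were taken by symbol: the families Kdm1 to Kdm8, Hdac, Sirt, Cbx, Smarc, Chd, Dnmt1 and Dnmt3, Tet, Ezh, Pcgf, Phc, Setd and Brd, together with Eed, Suz12, Bmi1, Ring1, Rnf2 and Jarid2. The rule itself uses symbols and no measured value, though it was written with earlier results of these data known. It took 108 of the 23361 genes in the expression table, and 103 of them reached a mean of 0.5 FPKM (sequenced fragments per kilobase of a gene's transcript, relative to all mapped fragments) over the 4 libraries and were tested.

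Back skin was taken at E17.5 from embryos carrying Shh-CreER or Nfatc1-CreER with Rosa-stop-tdTomato and K14-H2BGFP, after tamoxifen to the mother at E15.5. CreER is a recombinase that tamoxifen activates, so red tdTomato marked cells that expressed Nfatc1 or Shh at the time of the dose and their descendants, and K14-H2BGFP put green fluorescence in the nuclei of epithelial cells. Cells positive for both colours were sorted, and RNA was sequenced from 2 libraries of Nfatc1+ cells and 2 libraries of Shh+ cells. The comparison asked which genes set the upper hair peg cells marked by Nfatc1 apart from Shh+ cells. Whole skin was digested with 0.25% trypsin for 16 min at 37°C to release Nfatc1+ cells. For Shh+ cells, dispase (0.4 mg/ml, 1 h) loosened the epidermis, which was taken off before 10 min in trypsin. Population and digestion therefore cannot be told apart in any comparison below. No source says if both libraries of a population are from the same embryos or litter, and the p-values therefore cover the spread between libraries, which may be technical.

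Polycomb repressive complex 2 methylates histone H3, and polycomb repressive complex 1 ubiquitinates histone H2A and compacts chromatin, and both keep developmental genes silent until a lineage needs them. Histone deacetylases, sirtuins and demethylases remove marks, SET domain enzymes place methyl groups, DNA methyltransferases and TET enzymes add and oxidise methylcytosine, and the SWI/SNF and CHD remodelers use ATP to move nucleosomes. In the epidermis, polycomb complexes and DNA methyltransferases are known to hold back differentiation genes in progenitor cells, and many of these complexes are built from paralogs that exchange for each other in different cell types.

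The marker genes went with the labels. Nfatc1, whose expression marked the cells, was at 112 and 116 FPKM in the Nfatc1+ libraries and 25.3 and 20.1 FPKM in the Shh+ libraries, and Shh was at 10.5 and 11.7 FPKM (Nfatc1+) and 144 and 145 FPKM (Shh+). All 8 epithelial markers were expressed in every library, with sums of 6677 and 6657 FPKM (Nfatc1+) and 4583 and 4612 FPKM (Shh+). Of them, Krt5, Cdh1, Itgb4 and Trp63 were called higher in Nfatc1+ cells, Cdh3 and Dsp were called higher in Shh+ cells, and Krt14 and Epcam were not called. Defining markers of immune and endothelial cells were low: the immune markers summed to 1.78 and 3.39 FPKM in Nfatc1+ libraries and 2.01 and 2.75 FPKM in Shh+ libraries, with Ptprc at 0 in Shh+ replicate 2 and Cd52 at 0 in all libraries but Shh+ replicate 1, and the endothelial markers to 3.62 and 5.12 FPKM (Nfatc1+) and 4.53 and 4.10 FPKM (Shh+). Merkel cell markers summed to 28.1 and 31.7 FPKM in Nfatc1+ and 1.73 and 3.01 FPKM in Shh+ libraries, and all 6 were called higher in Nfatc1+ cells, with Krt20 at 0 in Shh+ replicate 1. Melanocyte markers were higher in replicate 2 of each population, with sums of 31.1 and 65.01 FPKM in Nfatc1+ and 7.99 and 42.4 FPKM in Shh+ libraries, and dermal fibroblast markers summed to 405 and 691 FPKM (Nfatc1+) and 634 and 747 FPKM (Shh+). Of 9 melanocyte markers tested, 1, Mitf, was called (higher in Nfatc1+ cells), and of 10 fibroblast markers 1, Dcn, was called (higher in Shh+ cells). Dcn alone was at 40.3 and 57.7 FPKM in Nfatc1+ and 326 and 425 FPKM in Shh+ libraries. Col1a1, Col1a2, Col3a1, Dpt and Pdgfra lay higher in both Nfatc1+ libraries than in either Shh+ library, and Lum, Pdgfrb, Postn and Twist2 overlapped. Of 20 immediate early genes, which cells switch on within minutes of a stimulus, 13 were called higher in Nfatc1+ cells and 1 in Shh+ cells, with sums of 3459 and 3942 FPKM in Nfatc1+ and 1682 and 1792 FPKM in Shh+ libraries. Of 20 proliferation markers, 1, Ccnb2, was called, higher in Nfatc1+ cells, and their median difference was −0.092. The part of these lists in the results below was not tested. In bulk RNA, fewer cells expressing a gene and less RNA per cell cannot be told apart.

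Most of the chromatin genes differed little between the populations, and most of the differences that passed the test lay in polycomb, histone deacetylase and SMARC genes, with the others in Tet2, Tet3, Kdm1b, Sirt5 and Chd3. With limma on log2(FPKM + 0.5), at a Benjamini-Hochberg adjusted p under 0.05 over all 12750 tested genes, 16 of the 103 were called higher in the Shh+ libraries and 8 in the Nfatc1+ libraries. The former count is 15 without Smarca1, which passed the filter on low values only through the Shh+ libraries. Those counts of 16 and 8 are 15.53% and 7.77%, beside 14.9% and 16.6% of all tested genes called in these directions. With a difference of at least 1 on the log2(FPKM + 0.5) scale as well, the called genes were Phc1 and Cbx2 in Shh+ cells and Hdac4 in Nfatc1+ cells, beside 4.7% and 5.72% of all tested genes. The median difference (Shh+ minus Nfatc1+, as for all log2 values here) was 0.0069 for the chromatin genes and 0.0018 for all tested genes, and the median size of the difference was 0.15 against 0.24. Among genes at 10 FPKM or more, these sizes were 0.12 for 77 chromatin genes and 0.19 for 7257 genes. For 71 of the chromatin genes (68.9%), both libraries of 1 population lay above both of the other, close to the 70.7% of all tested genes.

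**Figure D1:**
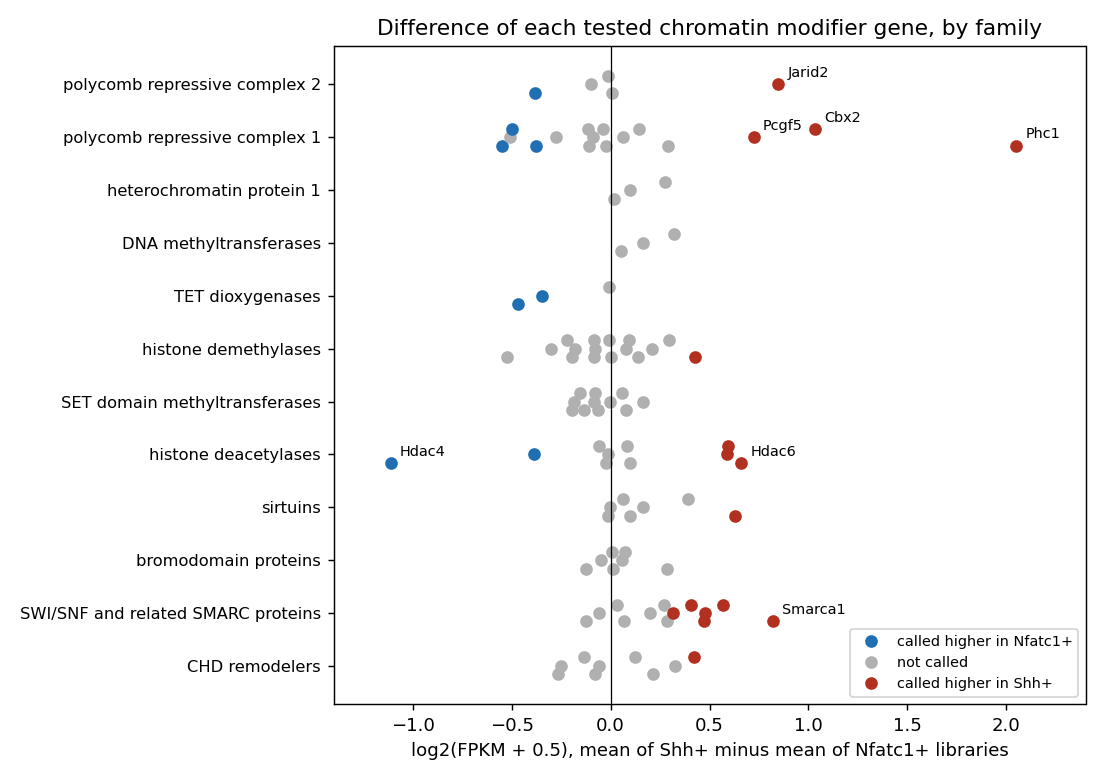
Each point is 1 of the 103 tested genes, placed by family and by its mean log2(FPKM + 0.5) in the 2 Shh+ libraries minus that in the 2 Nfatc1+ libraries. Red and blue points were called higher in Shh+ and Nfatc1+ cells, and grey points were not called. Phc1 at 2.05 lies farthest to the right and Hdac4 at −1.11 farthest to the left, while all 11 SET domain genes lie within 0.25 of 0.

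In polycomb repressive complex 2, the main enzyme and the core subunits did not pass the test, while Jarid2, an accessory subunit, was higher in Shh+ cells and Ezh1, an alternative enzyme, higher in Nfatc1+ cells. Jarid2, which binds DNA and brings the complex to its targets, was at 14.7 and 14.6 FPKM in the Nfatc1+ libraries and 27.2 and 26.4 FPKM in the Shh+ libraries. Both Shh+ values lay far above both Nfatc1+ values, a 1.83-fold difference in mean (log2 0.85 ± 0.074, SE, adjusted p = 0.00251). Its gene lies at chr13:44730774-44921643 of GRCm38.

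The catalytic subunit Ezh2 was at 60.6 and 58.5 FPKM in Nfatc1+ cells and 56.4 and 54.5 FPKM in Shh+ cells (log2 −0.10 ± 0.076, adjusted p = 0.364). For Suz12 and Eed, the scaffold subunits, the groups overlapped, with log2 differences of 0.0062 and −0.012. Ezh1, the paralog of Ezh2 that is also expressed in cells that no longer divide, was at 11.8 and 10.5 FPKM in Nfatc1+ and 8.58 and 8.23 FPKM in Shh+ libraries, and was called higher in Nfatc1+ cells (log2 −0.38 ± 0.093, adjusted p = 0.0402). That call ended without each library in turn, with adjusted p between 0.0732 without Nfatc1+ replicate 2 and 0.163 without Nfatc1+ replicate 1 (0.108 without Shh+ replicate 1 and 0.136 without Shh+ replicate 2), and also with no filter on low values (adjusted p = 0.0573). Ezh1 made up 16.3% and 15.2% of the summed FPKM of Ezh1 and Ezh2 in Nfatc1+ libraries and 13.2% and 13.1% in Shh+ libraries.

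Polycomb repressive complex 1 held the largest difference of all the chromatin genes tested. Of its 16 genes, 3 were called higher in Shh+ cells (Phc1, Cbx2, Pcgf5), 3 in Nfatc1+ cells (Cbx6, Phc3, Pcgf2) and 10 were not called. That is 18.75% in each direction, beside 14.9% (Shh+) and 16.6% (Nfatc1+) of all tested genes. Phc1, a polyhomeotic protein whose SAM domain lets complexes join into larger assemblies, was at 5.89 and 6.51 FPKM in the Nfatc1+ libraries and 27.8 and 26.7 FPKM in the Shh+ libraries. No library of either group came near the other group, and the mean was 4.39-fold higher in Shh+ cells, at 27.2 ± 0.770 FPKM against 6.20 ± 0.440 FPKM (SD, n = 2, log2 2.05 ± 0.087, adjusted p = 0.000609). With each library left out in turn, its adjusted p lay between 0.00529 and 0.00773. Its gene lies at chr6:122317731-122340227.

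**Figure D2:**
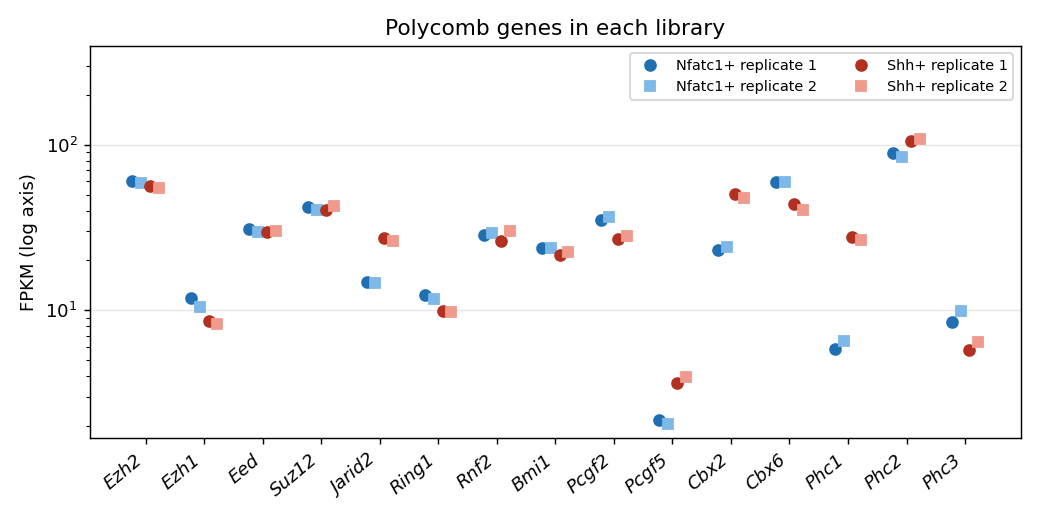
FPKM on a log axis for 15 polycomb genes, with 1 point per library (blue for Nfatc1+, red for Shh+, circles for replicate 1, squares for replicate 2). The red points of Phc1, Cbx2, Jarid2 and Pcgf5 lie above the blue ones, those of Cbx6, Pcgf2, Phc3 and Ezh1 lie below, and Eed, Suz12 and Rnf2 overlap.

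The 250 bases before the RefSeq start (GRCm38.p6) are shown for Phc1, Jarid2 and Hdac4, which carry large differences in each direction and have an entry (Cbx2 has none), written along each gene's own strand. Capitals mark CTTTGAT, a sequence that TCF/LEF factors, the DNA-binding partners of β-catenin, can bind, which was searched on both strands. Jarid2 has 2 listed starts, of which the more upstream is shown, and the listed start of Hdac4 lies inside the span of the gene.
Phc1, chr6:122340228-122340477, minus strand: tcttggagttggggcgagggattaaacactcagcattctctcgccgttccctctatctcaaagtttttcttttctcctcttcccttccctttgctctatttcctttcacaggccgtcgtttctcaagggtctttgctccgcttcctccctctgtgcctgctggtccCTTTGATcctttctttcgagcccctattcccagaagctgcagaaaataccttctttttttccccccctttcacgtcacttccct
Jarid2, chr13:44730524-44730773, plus strand: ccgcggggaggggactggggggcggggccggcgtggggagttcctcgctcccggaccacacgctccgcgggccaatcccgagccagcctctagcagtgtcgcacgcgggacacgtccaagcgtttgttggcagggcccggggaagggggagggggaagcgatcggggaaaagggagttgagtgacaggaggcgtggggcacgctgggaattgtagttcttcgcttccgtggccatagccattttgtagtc
Hdac4, chr1:92180342-92180591, minus strand: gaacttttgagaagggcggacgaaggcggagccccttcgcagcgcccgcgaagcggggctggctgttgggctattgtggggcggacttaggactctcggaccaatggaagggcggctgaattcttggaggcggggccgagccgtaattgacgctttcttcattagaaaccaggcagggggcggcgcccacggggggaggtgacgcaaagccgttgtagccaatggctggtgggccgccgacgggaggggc
The match in Phc1 starts 84 bases before the gene start. Of the 88 chromatin genes matched to a promoter entry, Phc1 was the only gene with CTTTGAT in this stretch (1.14%), and 1005 of 27025 genes of the genome had it (3.72%). G and C made up 49.6% of the Phc1 stretch, 67.2% of that of Jarid2 and 65.2% of that of Hdac4, beside medians of 63.6% over the chromatin genes and 52.4% over all genes. A match of letters is no evidence of binding, and none was measured here.

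The other polyhomeotic genes differed less, and in opposite directions. Phc2 was the most abundant of them at 89.2 and 84.4 FPKM in Nfatc1+ and 104 and 108 FPKM in Shh+ libraries, which did not overlap but missed the threshold (log2 0.29 ± 0.078, adjusted p = 0.0533). Phc3 was at 8.52 and 9.91 FPKM in Nfatc1+ and 5.79 and 6.45 FPKM in Shh+ libraries (log2 −0.55 ± 0.11, adjusted p = 0.0245). The Phc3 call ended without Nfatc1+ replicate 2 (adjusted p = 0.101), Shh+ replicate 1 (0.0983) or Shh+ replicate 2 (0.0610). As a share of the summed FPKM of the polyhomeotic genes, Phc1 was 5.68% and 6.46% in Nfatc1+ libraries and 20.1% and 18.9% in Shh+ libraries, and Phc3 8.22% and 9.83% (Nfatc1+) and 4.20% and 4.58% (Shh+). The sum itself was 104 and 101 FPKM in Nfatc1+ and 138 and 141 FPKM in Shh+ libraries.

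Among the CBX proteins of polycomb repressive complex 1, which read methylated histone H3 through a chromodomain, Cbx2 and Cbx6 differed in opposite directions. Cbx2 was at 23.2 and 24.3 FPKM in the Nfatc1+ libraries and 50.7 and 47.6 FPKM in the Shh+ libraries. Both Shh+ values lay above both Nfatc1+ values, with a 2.07-fold difference in mean (log2 1.03 ± 0.081, adjusted p = 0.00192), and the call remained in all 4 fits that left out a library, with adjusted p between 0.0132 and 0.0173. Cbx6 was at 59.5 and 59.3 FPKM in the Nfatc1+ libraries and 43.7 and 40.1 FPKM in the Shh+ libraries, without overlap (log2 −0.50 ± 0.083, adjusted p = 0.0145). The Cbx6 call was lost without Nfatc1+ replicate 1 (adjusted p = 0.0757), Nfatc1+ replicate 2 (0.0754) or Shh+ replicate 2 (0.0584).

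The summed FPKM of Cbx2, Cbx6, Cbx7 and Cbx8 did not overlap between the populations, at 94.8 and 94.3 in Nfatc1+ and 104 and 99.1 in Shh+ libraries. Within that sum the leading gene changed. Cbx6 held 62.8% and 62.9% in Nfatc1+ libraries and 41.97% and 40.5% in Shh+ libraries, and Cbx2 held 24.5% and 25.7% (Nfatc1+) and 48.7% and 48.1% (Shh+). Cbx8 and Cbx7 differed by −0.11 and −0.090 log2 units and were not called. Cbx2 (chr11:119023019-119031275) and Cbx8 (chr11:119036303-119040913) are neighbours on the chromosome, and of these Cbx2 alone was called.

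**Figure D3:**
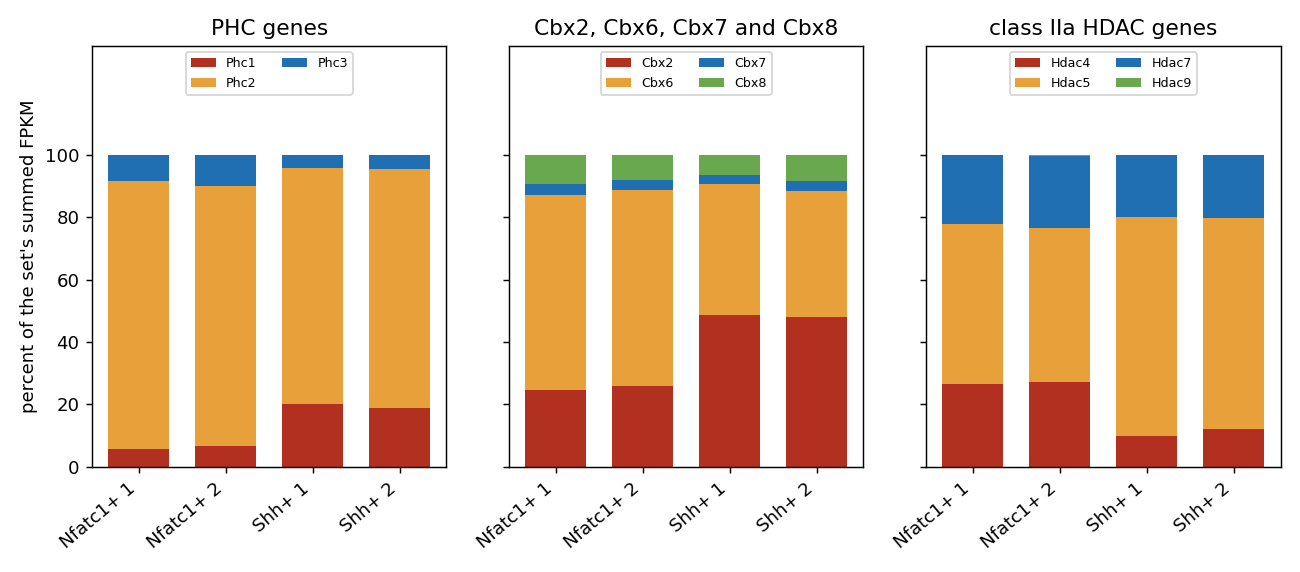
Stacked bars give each gene's percent of the summed FPKM of its set in each library, for polyhomeotic genes, Cbx2, Cbx6, Cbx7 and Cbx8, and class IIa histone deacetylases. From Nfatc1+ to Shh+ libraries the Phc1 share goes from 5.68% and 6.46% to 20.1% and 18.9%, the Cbx2 share from 24.5% and 25.7% to 48.7% and 48.1%, and the Hdac4 share from 26.4% and 27.0% to 9.77% and 11.98%.

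The PCGF proteins define the variants of polycomb repressive complex 1, and their genes were split too. Pcgf5, of a variant complex, was low at 2.17 and 2.06 FPKM in Nfatc1+ and 3.65 and 3.99 FPKM in Shh+ libraries (log2 0.72 ± 0.084, adjusted p = 0.00541), and it kept its call in each fit that left out a library (adjusted p up to 0.0376). Pcgf2, of the canonical complex with CBX and PHC proteins, was at 35.3 and 36.8 FPKM in Nfatc1+ and 27.05 and 28.2 FPKM in Shh+ libraries (log2 −0.38 ± 0.077, adjusted p = 0.0259). The Pcgf2 call ended when any of the 4 libraries was left out, with adjusted p of 0.0952 and 0.131 without Nfatc1+ replicates 1 and 2 and 0.0967 and 0.0722 without Shh+ replicates 1 and 2.

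Bmi1, the other canonical PCGF gene, was at 23.9 and 23.9 FPKM in Nfatc1+ and 21.5 and 22.6 FPKM in Shh+ libraries (log2 −0.12 ± 0.075, adjusted p = 0.305). The E3 ligase genes were not called: Ring1 differed by −0.28 ± 0.076 (adjusted p = 0.0560) and Rnf2 by −0.039 ± 0.10 (adjusted p = 0.797). Pcgf1, Pcgf3 and Pcgf6 differed by 0.061, −0.024 and 0.15 log2 units and were not called either. Of the enzyme genes of both polycomb complexes (Ezh1, Ezh2, Ring1, Rnf2), Ezh1 was called, and Ring1 passed in alternatives with a higher filter of 2 FPKM or with a prior variance that follows the expression level (mean-variance trend).

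The heterochromatin protein 1 genes, which bind the histone H3 methylation of silent repeats, were expressed strongly and limma called none, with 1 at an unadjusted p under 0.05. Cbx3 was the highest, at 193 and 201 FPKM in Nfatc1+ and 195 and 204 FPKM in Shh+ libraries (log2 0.018 ± 0.078). Cbx5 was the gene past the unadjusted threshold, with 47.5 and 46.6 FPKM (Nfatc1+) and 55.5 and 58.5 FPKM (Shh+) (log2 0.27 ± 0.077, adjusted p = 0.0586), and Cbx1 differed by 0.098 ± 0.090.

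Of the DNA methylation enzymes, the methyltransferases were not called by limma (1, Dnmt3b, had an unadjusted p under 0.05) and 2 of 3 TET genes were called higher in Nfatc1+ cells. Dnmt1, which copies methylation after replication, was at 86.3 and 86.7 FPKM in Nfatc1+ and 100 and 93.8 FPKM in Shh+ libraries (log2 0.16 ± 0.079, adjusted p = 0.185). Of the enzymes that methylate new sites, Dnmt3a differed by 0.054 ± 0.087 and Dnmt3b by 0.32 ± 0.11 (adjusted p = 0.668 and 0.0962), and their cofactor Dnmt3l was too low to test.

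Tet3, which made up about 4 in 5 of the summed TET FPKM in every library (79.97% and 79.2% in Nfatc1+ and 80.9% and 79.2% in Shh+ libraries), was at 44.5 and 46.5 FPKM in Nfatc1+ and 35.7 and 35.7 FPKM in Shh+ libraries (log2 −0.35 ± 0.075, adjusted p = 0.0299). Tet2 was at 9.14 and 9.72 FPKM (Nfatc1+) and 6.10 and 7.29 FPKM (Shh+) (log2 −0.47 ± 0.11, adjusted p = 0.0375). Tet1 was at 2.002 and 2.46 FPKM (Nfatc1+) and 2.34 and 2.09 FPKM (Shh+) and overlapped. The TET sum was 55.6 and 58.7 FPKM in Nfatc1+ and 44.1 and 45.03 FPKM in Shh+ libraries, without overlap. The call of Tet3 ended when any library was left out, and with the replicate number as a block (limma adjusted p = 0.0547). That of Tet2 ended without Nfatc1+ replicate 1, Nfatc1+ replicate 2 or Shh+ replicate 1. It also ended when genes of every level were tested (limma adjusted p = 0.0559).

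Histone demethylases and SET domain methyltransferases were nearly level. Of 16 demethylase genes tested, 1 was called, Kdm1b, an amine oxidase paralog of Kdm1a (LSD1), at 8.30 and 8.24 FPKM in Nfatc1+ and 11.2 and 11.4 FPKM in Shh+ libraries (log2 0.43 ± 0.072, adjusted p = 0.0155). Its call ended when any of the 4 libraries was left out, with adjusted p of 0.0807 and 0.0859 without Nfatc1+ replicates 1 and 2 and 0.0596 and 0.0639 without Shh+ replicates 1 and 2. In the GENCODE M21 annotation, 9.19% of its exonic bases also lie in exons of Dek on the other strand, which was at 141 to 157 FPKM, and whether reads were assigned by strand is not stated. Kdm5b was the nearest to the threshold of the others, at 27.7 and 29.7 FPKM in Nfatc1+ and 35.1 and 35.5 FPKM in Shh+ libraries (log2 0.29 ± 0.079, adjusted p = 0.0527). The 16 ranged from −0.52 to 0.43. Kdm6a and Kdm6b, which remove the mark set by polycomb repressive complex 2, overlapped between the groups, with differences of 0.21 ± 0.12 and −0.083 ± 0.099.

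The Y-linked Kdm5d was at 7.35 and 4.83 FPKM in the Nfatc1+ libraries and 4.03 and 3.97 FPKM in the Shh+ libraries and was not called (log2 −0.52 ± 0.20, adjusted p = 0.119). It was high in Nfatc1+ replicate 1, and it passed the threshold without Nfatc1+ replicate 2 (adjusted p = 0.0232). Other Y-linked genes stood in the same order in Nfatc1+ cells, with Ddx3y at 16.8 and 10.6 FPKM (Nfatc1+) and 8.78 and 10.5 FPKM (Shh+) and Uty at 5.77 and 3.54 FPKM (Nfatc1+) and 3.18 and 3.45 FPKM (Shh+). Xist, transcribed from the inactive X chromosome of female cells, was at 50.1 and 85.1 FPKM in Nfatc1+ and 89.5 and 92.6 FPKM in Shh+ libraries. Both kinds of transcript were present in every library, and the Y-linked genes were higher and Xist lower in Nfatc1+ replicate 1 than in Nfatc1+ replicate 2.

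All 11 SET domain genes differed by less than 0.25 log2 units, from −0.19 to 0.16, and limma called none (1, Setd1b, had an unadjusted p under 0.05). Of all tested genes, 51.9% lay under 0.25. Setd8 (Kmt5a in RefSeq), which monomethylates histone H4, was at 72.4 and 70.4 FPKM in Nfatc1+ and 61.1 and 64.4 FPKM in Shh+ libraries (log2 −0.19 ± 0.077, adjusted p = 0.142), and Setdb1, a histone H3 methyltransferase that silences retroelements, differed by −0.0018 ± 0.076. The 7 bromodomain genes, readers of acetylated histones, were not called either (1, Brd3, had an unadjusted p under 0.05 and passed with a mean-variance trend) and ranged from −0.12 to 0.29.

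Of the 10 histone deacetylases tested, 3 were called toward Shh+ cells and 2 toward Nfatc1+ cells, none of them in class I. These are 30% and 20%, beside 14.9% and 16.6% of all tested genes. The class I genes, of which Hdac1, Hdac2 and Hdac3 encode catalytic subunits of the large corepressor complexes, differed little. Hdac1 was at 122 and 109 FPKM in Nfatc1+ and 112 and 117 FPKM in Shh+ libraries (log2 −0.014 ± 0.093). Hdac2, Hdac3 and Hdac8 differed by 0.10 ± 0.088, −0.058 ± 0.084 and 0.084 ± 0.073, each with an unadjusted p above 0.05. Hdac2 and Hdac8 were slightly higher in both Shh+ libraries, without overlap. The called genes belong to class II and to Hdac11, the only class IV enzyme. In GENCODE M21, 15.4% of the exonic bases of Hdac11 also lie in exons of Gm44002 and 2.49% in exons of Gm14573, both on the other strand.

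Hdac4, a class IIa enzyme that shuttles between nucleus and cytoplasm and represses MEF2 target genes, was at 20.1 and 21.6 FPKM in the Nfatc1+ libraries and 8.82 and 9.99 FPKM in the Shh+ libraries. Each Nfatc1+ value was more than 2 times each Shh+ value (mean 20.9 ± 1.07 FPKM against 9.41 ± 0.828 FPKM, SD, n = 2, 2.22-fold, log2 −1.11 ± 0.098, adjusted p = 0.00257). The call remained in each fit that left out a library, with adjusted p between 0.0125 and 0.0194. The gene lies at chr1:91928779-92195702, and 22.4% of its exonic bases in GENCODE M21 also lie in exons of the noncoding gene Gm26720 on the other strand. Hdac5, its class IIa paralog, was at 39.4 and 39.7 FPKM in the Nfatc1+ libraries and 63.5 and 56.5 FPKM in the Shh+ libraries (log2 0.59 ± 0.091, adjusted p = 0.0118). The Hdac5 call was lost without Nfatc1+ replicate 1 (adjusted p = 0.0646) or Nfatc1+ replicate 2 (0.0626).

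The class IIa paralogs thus moved in opposite directions, while Hdac7 overlapped between the groups (log2 −0.021 ± 0.090) and Hdac9 was too low to test. Hdac4 was 26.4% and 27.01% of the class IIa sum in Nfatc1+ libraries and 9.77% and 11.98% in Shh+ libraries, and Hdac5 was 51.6% and 49.6% (Nfatc1+) and 70.3% and 67.7% (Shh+). The sum was 76.4 and 80.1 FPKM in Nfatc1+ and 90.3 and 83.4 FPKM in Shh+ libraries.

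**Figure D4:**
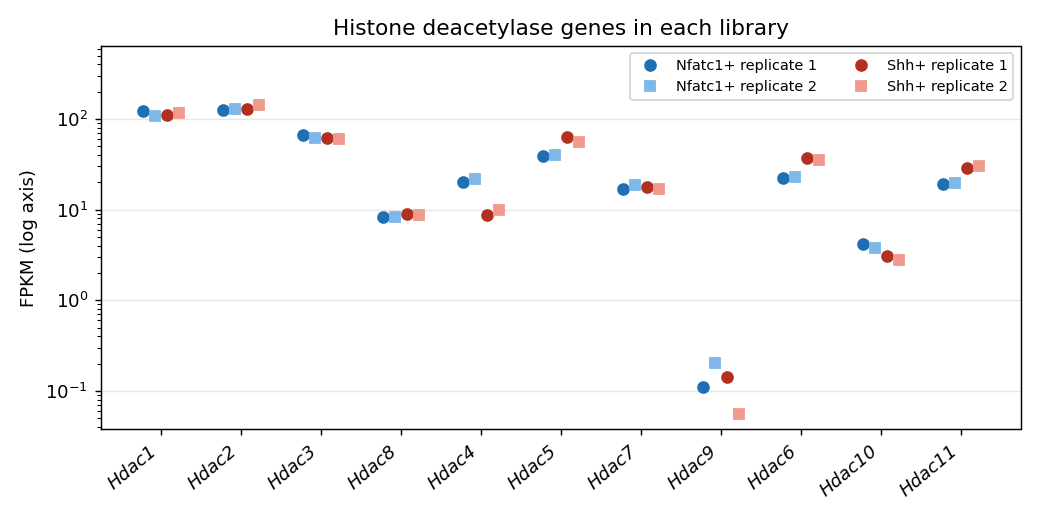
FPKM on a log axis of the 11 histone deacetylase genes, with 1 point per library (blue for Nfatc1+, red for Shh+). Hdac1, Hdac3 and Hdac7 overlap between the colours, and Hdac2 and Hdac8 lie slightly higher in red. Hdac4 and Hdac10 are higher in blue, Hdac5, Hdac6 and Hdac11 are higher in red, and Hdac9 lies below 0.5 FPKM in every library.

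Hdac6, a class IIb enzyme that deacetylates tubulin in the cytoplasm, was at 22.6 and 22.8 FPKM in the Nfatc1+ libraries and 37.2 and 35.2 FPKM in the Shh+ libraries (log2 0.66 ± 0.077, adjusted p = 0.00539), and kept its call in each fit that left out a library (adjusted p up to 0.0386). The gene is on the X chromosome (chrX:7930116-7948047). Xist was at 50.1 and 85.1 FPKM in Nfatc1+ and 89.5 and 92.6 FPKM in Shh+ libraries. Whether the mix of male and female cells had a part in the Hdac6 difference was not tested. Hdac10, the other class IIb gene, was low at 4.19 and 3.77 FPKM in Nfatc1+ and 3.05 and 2.79 FPKM in Shh+ libraries (log2 −0.39 ± 0.093, adjusted p = 0.0385). The Hdac10 call ended when any library was left out (adjusted p = 0.164 and 0.0881 without Nfatc1+ replicates 1 and 2, 0.0826 and 0.133 without Shh+ replicates 1 and 2), with no filter (0.0549) and with a mean-variance trend (0.0649). Hdac11 was at 19.1 and 19.6 FPKM in Nfatc1+ and 28.5 and 30.2 FPKM in Shh+ libraries (log2 0.59 ± 0.077, adjusted p = 0.00761), and lost its call without Nfatc1+ replicate 1 (adjusted p = 0.0510).

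Of the 7 sirtuins, NAD-dependent deacylases, Sirt5 was called. This mitochondrial enzyme, which removes succinyl and malonyl groups, was at 4.29 and 4.09 FPKM in the Nfatc1+ libraries and 7.03 and 6.47 FPKM in the Shh+ libraries (log2 0.63 ± 0.084, adjusted p = 0.00788). The Sirt5 call was lost without Nfatc1+ replicate 2 (adjusted p = 0.0509). The family ranged from −0.012 to 0.63. Sirt1, the nuclear deacetylase, overlapped between the groups with a difference of −0.012 ± 0.10.

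The calls among SWI/SNF and related SMARC genes were all in the same direction. Leaving aside Smarca1, 5 of 12 tested were called higher in Shh+ cells and none in Nfatc1+ cells, with a median difference of 0.28. Over all tested genes, 14.9% and 16.6% were called in these directions. At an unadjusted p under 0.05 in limma, 8 of the 13 with Smarca1 passed, none of them higher in Nfatc1+ cells. Of all 12750 tested genes, 5555 passed at that level. The summed FPKM of all 13 was 665 and 653 in Nfatc1+ and 792 and 803 in Shh+ libraries. The ATPase Smarca4 (BRG1) was at 69.3 and 72.7 FPKM in the Nfatc1+ libraries and 84.1 and 79.2 FPKM in the Shh+ libraries, which did not overlap but missed the threshold (log2 0.20 ± 0.081, adjusted p = 0.133). Smarca2 (BRM), the alternative ATPase, overlapped between the groups (log2 0.034 ± 0.097).

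Smarcd2, an accessory subunit with paralogs Smarcd1 and Smarcd3, was the most abundant SMARC gene at 166 and 151 FPKM in Nfatc1+ and 222 and 220 FPKM in Shh+ libraries (log2 0.48 ± 0.086, adjusted p = 0.0183). Smarcd1 was at 20.9 and 21.9 FPKM (Nfatc1+) and 31.3 and 32.7 FPKM (Shh+) (log2 0.57 ± 0.078, adjusted p = 0.00855). In GENCODE M21, 7.13% of its exonic bases also lie in exons of Gm17349 and 5.56% in exons of Gm34939, both on the other strand. Smarcd3, at 8.13 and 8.54 FPKM (Nfatc1+) and 9.73 and 10.6 FPKM (Shh+), was not called (log2 0.27 ± 0.085, adjusted p = 0.0763). The sum of the SMARCD genes did not overlap between the populations, at 195 and 181 FPKM in Nfatc1+ and 263 and 263 FPKM in Shh+ libraries, while the Smarcd2 share overlapped at 85.1% and 83.2% (Nfatc1+) and 84.4% and 83.5% (Shh+). The Smarcd1 call ended without Nfatc1+ replicate 1 (adjusted p = 0.0563), and that of Smarcd2 without Nfatc1+ replicates 1 or 2 (0.0504 and 0.0913) or Shh+ replicates 1 or 2 (0.0757 and 0.0714).

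Smarce1, the HMG-box subunit that binds DNA, was at 85.5 and 86.3 FPKM in the Nfatc1+ libraries and 114 and 125 FPKM in the Shh+ libraries (log2 0.47 ± 0.085, adjusted p = 0.0185). Smarcc1, a core scaffold subunit, was at 62.05 and 63.6 FPKM (Nfatc1+) and 75.5 and 80.9 FPKM (Shh+) (log2 0.31 ± 0.080, adjusted p = 0.0458), while its paralog Smarcc2 and the core subunit Smarcb1 differed by 0.068 ± 0.077 and −0.059 ± 0.081 and were not called. The Smarce1 call ended without Nfatc1+ replicate 1 (adjusted p = 0.0915), Nfatc1+ replicate 2 (0.0872) or Shh+ replicate 2 (0.0681). That of Smarcc1 ended when any library was left out (adjusted p = 0.182 and 0.154 without Nfatc1+ replicates 1 and 2, 0.0859 and 0.145 without Shh+ replicates 1 and 2), and with a pseudocount of 0.1 (0.0551), no filter (0.0609), median scaling (0.0512) or the replicate number as a block (0.0687).

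**Figure D5:**
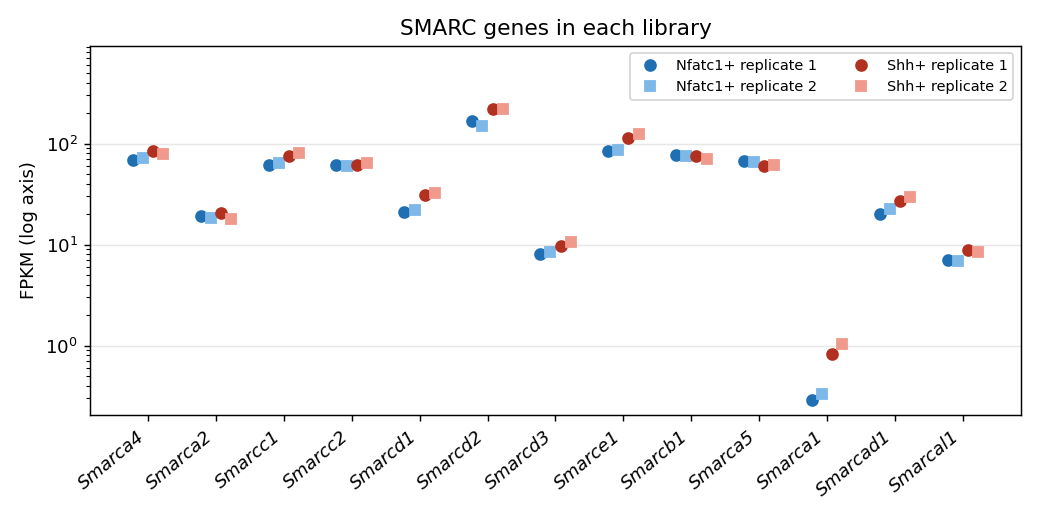
FPKM on a log axis of the 13 tested SMARC genes, with 1 point per library (blue for Nfatc1+, red for Shh+). The red points of Smarcd1, Smarcd2, Smarce1, Smarcc1, Smarcad1 and Smarca1 lie above the blue ones, and Smarca2 and Smarcb1 overlap.

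Outside SWI/SNF itself, Smarcad1, a remodeler that helps to restore silent chromatin after replication, was at 20.2 and 22.6 FPKM in Nfatc1+ and 27.2 and 29.8 FPKM in Shh+ libraries (log2 0.41 ± 0.099, adjusted p = 0.0410). Its call ended when any library was left out (adjusted p = 0.167 and 0.0827 without Nfatc1+ replicates 1 and 2, 0.0827 and 0.140 without Shh+ replicates 1 and 2), with a pseudocount of 0.1 (0.0534) and with no filter (0.0591). The ISWI ATPase Smarca5 was at 67 and 66.4 FPKM (Nfatc1+) and 60.5 and 61.9 FPKM (Shh+) (log2 −0.12 ± 0.073, adjusted p = 0.262). Its X-linked paralog Smarca1 was near the limit of detection at 0.287 and 0.334 FPKM in Nfatc1+ and 0.834 and 1.04 FPKM in Shh+ libraries (log2 0.82 ± 0.10, adjusted p = 0.00673). Smarca1 passed the filter on low values only through the Shh+ libraries, and a gene that passes in this way has to differ, so its call is given as a value only.

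Of the 9 CHD genes tested, which ranged from −0.27 to 0.42, Chd3 was called. Chd3 and Chd4 encode the alternative ATPases of the NuRD complex, which joins remodeling to deacetylation. Chd3 was at 124 and 130 FPKM in the Nfatc1+ libraries and 178 and 164 FPKM in the Shh+ libraries (log2 0.42 ± 0.086, adjusted p = 0.0250), and Chd4 was at 114 and 121 FPKM (Nfatc1+) and 108 and 105 FPKM (Shh+) (log2 −0.14 ± 0.079, adjusted p = 0.256). Chd3 therefore made up 52.2% and 51.9% of the summed FPKM of Chd3, Chd4 and Chd5 in Nfatc1+ libraries and 62.3% and 60.9% in Shh+ libraries. The Chd3 call ended when any library was left out (adjusted p = 0.120 and 0.0905 without Nfatc1+ replicates 1 and 2, 0.0918 and 0.0544 without Shh+ replicates 1 and 2).

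Of the 24 called genes, 6 kept their call in all 12 alternative fits that gave an adjusted p: Phc1, Cbx2, Jarid2, Pcgf5 and Hdac6, higher in Shh+ cells, and Hdac4, higher in Nfatc1+ cells. No called gene changed direction in any of them. Over the 103 genes, replicates differed with an SD of 0.12 log2 units in each population, and the group means with an SD of 0.38. For all tested genes at 10 FPKM or more, these SDs were 0.21 (Nfatc1+) and 0.28 (Shh+) between replicates and 0.63 between group means. The 5 genes too low to test were Chd5, Dnmt3l, Hdac9, Kdm4d, listed at 0 in every library, and Smarca5-ps, a pseudogene of Smarca5 whose reads may come from that gene.

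Chromatin genes outside these families, from a list of other subunits, readers and writers, were counted in the same fit. Of 109 tested, 11 (10.1%) were called toward Shh+ cells and 8 (7.34%) toward Nfatc1+ cells, with a median difference of −0.024, and both shares lay under those of all tested genes. The largest called differences toward Shh+ cells were in Dpf1, a SWI/SNF subunit (log2 1.20 ± 0.20, adjusted p = 0.0150), Baz1a, a partner of ISWI ATPases (log2 0.83 ± 0.10, adjusted p = 0.00680), and Bcl7a, Suv39h2 and Mbd2 (0.43, 0.42 and 0.40). Genes called toward Nfatc1+ cells included Phf1, an accessory subunit of polycomb repressive complex 2 (log2 −0.72 ± 0.15, adjusted p = 0.0254), and Rcor3, Bcl11a and Mll5 (−0.51, −0.51 and −0.50). Baz1a kept its call in each fit that left out a library. The Dpf1 call ended without Nfatc1+ replicate 1 (adjusted p = 0.0671), and without that library all the other 7 lost theirs too, with adjusted p from 0.0552 for Mll5 to 0.137 for Mbd2. Without Nfatc1+ replicate 2 those 7 also lost their calls (adjusted p from 0.0633 for Bcl11a to 0.156 for Mbd2). Without Shh+ replicate 1 the calls of Bcl7a (0.0633), Suv39h2 (0.0684), Bcl11a (0.0502) and Mll5 (0.0510) ended, and without Shh+ replicate 2 those of Bcl7a (0.0591), Suv39h2 (0.0740), Mbd2 (0.112), Phf1 (0.0549) and Rcor3 (0.0579).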

How the data were processed

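The deposited values were FPKM per gene for 4 libraries. Per the labels and the submitters' processing notes, the authors mapped reads to GRCm38/mm10 with TopHat2 (2.0.13) and computed FPKM with Cufflinks (2.2.1). HTSeq is named there without a role. No counts were used here, so depth is unknown. Relative depth was estimated as the most common ratio of the value in Nfatc1+ replicate 1 to that in each library. Genes above 0 and below 0.3 FPKM in both were used. The estimates were 1, 0.927, 0.927 and 0.575 in Nfatc1+ replicates 1 and 2 and Shh+ replicates 1 and 2. All genes averaging 0.5 FPKM or more over the libraries were tested on log2(FPKM + 0.5), a scale that understates changes of low genes, with limma (3.58.1, R 4.3.3) without a block or trend, tested on simulated data. A gene was called at a Benjamini-Hochberg adjusted p under 0.05. Folds are ratios of mean FPKM. The 108 genes and the lists were chosen with earlier results of these data known. Named genes were 39 fixed enzymes and core subunits and up to 3 called genes per family with the largest difference. Pcgf1, Pcgf2, Pcgf3, Pcgf6, Setd1b, Brd3, Hdac7, Hdac8, Hdac10, Hdac11, Kdm5d, Smarcad1, Smarcb1, Smarcc1, Smarcc2, Smarcd3, Smarce1, Smarca5 and the paralog sets were chosen after values were seen. A few genes covered by these rules are counted but not reported here by name. Coordinates and promoters are from RefSeq (GRCm38.p6). Alternatives were other pseudocounts (0.1, 1), filters (none, 2 FPKM), scalings (upper quartile, median), a replicate block, a mean-variance trend, the study's form of threshold and each library left out.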

Additional observations from a re-analysis of the deposited data

How the results depend on the processing

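In the study's form of threshold (fold over 2 and p under 0.01 without adjustment), 2 of the 103 genes passed toward Shh+ cells and 1 toward Nfatc1+ cells, and 1 and 0 of the other chromatin genes. Of all 12750 tested genes, 591 and 720 passed. At an unadjusted p under 0.05 alone, 31 of the 109 other chromatin genes passed in either direction, beside 5555 of all 12750 tested genes, a larger share. With no filter on low values, the genes called higher in Nfatc1+ cells fell from 8 to 5, and the other chromatin genes called higher in Shh+ cells from 11 to 7. Over all 17092 genes then tested, 1788 were called toward Shh+ and 2026 toward Nfatc1+ cells, in place of 1898 and 2111 of 12750. A mean-variance trend raised the other chromatin genes called higher in Nfatc1+ cells from 8 to 13. It raised the counts over the 103 genes to 23 and 10, with 16 and 7 shared with the calls above, the added ones including Ring1, Phc2, Cbx5, Kdm5b and Smarca4. The counts over all 12750 tested genes rose as well, from 1898 and 2111 to 2310 and 2406. Leaving out each library in turn gave 7 to 11 genes called toward Shh+ cells and 2 to 3 toward Nfatc1+ cells, and 1 to 3 and 1 to 5 of the other chromatin genes, and the library left alone in its group is then assumed to vary like the other group. Each fit that left out a library also called fewer of all 12750 tested genes in each direction. The loss of calls was therefore not confined to the chromatin genes. The cause of the changes between settings was not tested, except that leaving out a library leaves fewer samples.

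The replicate numbers were not taken as pairing the libraries, since no source ties them: the differences between replicates 1 and 2 correlated at r = 0.149 between the populations over 7257 genes, which are not independent. With the replicate number as a block, 16 and 7 of the 103 genes were called (15 and 7 shared), and 5 in place of 11 of the other chromatin genes in Shh+ cells. Of all 12750 tested genes, the block gave 1719 toward Shh+ and 1980 toward Nfatc1+ cells. Other pseudocounts, filters and scalings gave 14 to 19 genes toward Shh+ cells and 8 to 10 toward Nfatc1+ cells, apart from the count of 5 above. Over all tested genes these settings gave 1722 to 2025 toward Shh+ and 1915 to 2220 toward Nfatc1+ cells. Each of the 58 genes named by rule, inside and outside the families, was followed through the alternatives, the study's form of threshold included. Over these pairs of gene and alternative, 0 reversed a called direction, 87 ended a call and 16 added one. Genes chosen after values were seen are not in these counts. By the estimate of relative depth, Shh+ replicate 2 was the shallowest library, so its low values would carry the largest counting error.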
